A study of Mus musculus with 2 samples.

Results

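The cells described here are the barcodes of 2 single-cell libraries of mouse small cell lung cancer that held at least 3 molecules of Hes1 mRNA. They were selected on their measured Hes1 counts and are called Hes1-high cells. A barcode entered with at least 500 detected genes, at most 10% of its unique molecular identifiers (UMIs, each 1 counted RNA molecule) from mitochondrial genes, and under 5 UMIs summed over Hhex, Isl1, Hoxb8, Sfrp5 and Gfra4, a set of 5 genes that marks a delta-like endocrine population. Of 7980 barcodes in all, 7124 passed these filters and 311 of them were Hes1-high, 70 in the vehicle library and 241 in the cisplatin library. They were compared with barcodes of the same library that held 0 Hes1 UMIs and at least 4000 UMIs in total, the Hes1-0 cells, of which there were 2545 in vehicle and 1735 in cisplatin. A further 563 and 811 barcodes held 1 or 2 Hes1 UMIs.

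Both libraries came from lung tumours of CGRPCreER/+ mice of mixed strain with floxed tumour suppressor alleles, Rb and P53 among them, and a Rosa26mTmG reporter. Control and treated mice shared this genotype, in which an inducible Cre recombinase is driven from the CGRP (Calca) locus of neuroendocrine cells, so the tumours model disease started in CGRP-expressing cells only. The vehicle group received saline and the other group cisplatin, which crosslinks DNA. Its dose was 5 mg per kg, repeated at intervals of 4 days over 2 weeks. The description of library preparation also mentions etoposide for the treated tumours, and the age and number of the animals behind each library are not given in the sources used here. Tumours were digested for up to 45 min, live GFP-positive cells were sorted, and 5000 cells per library were loaded on the 10x Genomics platform.

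Notch receptors are cleaved when a ligand on a neighbouring cell binds them, and the freed intracellular domain joins Rbpj on DNA to switch on targets such as Hes1, Hey1 and Nrarp. Hes1 is a basic helix-loop-helix repressor that holds back proneural and neuroendocrine genes. In small cell lung cancer most cells are neuroendocrine, and Hes1 marks a Notch-active population that earlier work in mouse models described as non-neuroendocrine and slower growing.

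Hes1-high barcodes were deeper than Hes1-0 barcodes. In vehicle they held 2672 to 33739 UMIs (median 12109) against a median of 8505 in Hes1-0, and in cisplatin 2010 to 28820 (median 8214) against 6091. The summed depth was 918084 UMIs in vehicle and 2197166 UMIs in cisplatin. Each group is 1 library, so no difference has a replicate check, no p-value is given, and treatment and library cannot be told apart. Levels are in CPM, UMIs of a gene per 1000000 UMIs summed over the barcodes of a class. Intervals in parentheses after a level, share or fold are exact 95% intervals that cover counting error only. A gene was measured in a comparison with at least 50 UMIs over both classes, and was called higher or lower at a 1.5-fold ratio of CPM with 1 CPM added to each side. Log2 ratios are on that scale, which understates the change of low genes.

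Of the Hes1-high cells, 4 vehicle members carried the markers of another lung cell type. A barcode counted as marked when it held at least 3 genes and 10 UMIs of 1 of 13 sets for other cell types. One marked barcode had 8477 UMIs of club cell genes among its 33306, together with alveolar type 2 genes, and it was also the barcode with the most Hes1 UMIs (43). Another had 2142 club cell UMIs, 1 carried B cell genes and 1 carried 48 endothelial UMIs. No cisplatin member was marked (0 of 241). In vehicle the club set therefore summed to 11680 CPM over Hes1-high cells, with all 5 genes present, against 377 CPM in cisplatin, where Scgb3a1 was at 0. In Hes1-0 cells the club set summed to 227 and 526 CPM. The macrophage set had 4 of 8 genes present in each library, with C1qb, C1qc and Adgre1 at 0, and summed to 20.7 and 15.5 CPM. The fibroblast set rested on Dcn, with the collagen genes Col1a1, Col1a2 and Col3a1 at 0 in both libraries. The label of tumour cells thus goes against the markers of the 2 club-marked and the endothelial-marked barcodes, whose neuroendocrine list summed to 1952, 3748 and 2152 CPM. The B cell-marked barcode had 7472.5 CPM of that list, and whether it holds more than 1 cell was not tested. The vehicle member lowest for that list, at 0 CPM, was not marked, and its cell type was not tested. Main results are repeated with marked barcodes left out of both classes where that changes them.

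Hes1 is a protein-coding gene on the plus strand of mouse chromosome 16, from 30064384 to 30067796 in the GENCODE annotation of the mm10 build. Hes1 itself chose these cells, so its values are a description. Hes1-high cells were 1.92% of vehicle barcodes (70 of 3654, 1.496 to 2.414%) and 6.95% of cisplatin barcodes (241 of 3470, 6.12 to 7.84%). With every barcode thinned to 4000 UMIs the shares were 0.605% (19 of 3139) and 3.78% (101 of 2670). Members held a median of 4 Hes1 UMIs in each library, and the highest counts were 43 in vehicle and 23 in cisplatin. Summed over members, Hes1 stood at 403 CPM (363 to 446) in vehicle, or 373 CPM without the 4 marked barcodes, and at 553 CPM (522 to 585) in cisplatin. Just inside the threshold, 33 vehicle and 98 cisplatin barcodes had exactly 3 UMIs, a level of 249.9 and 361 CPM. Just outside it, 99 and 193 barcodes had exactly 2, a level of 154 and 249 CPM. The counts fell off without a gap at the threshold.

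**Figure D1:**
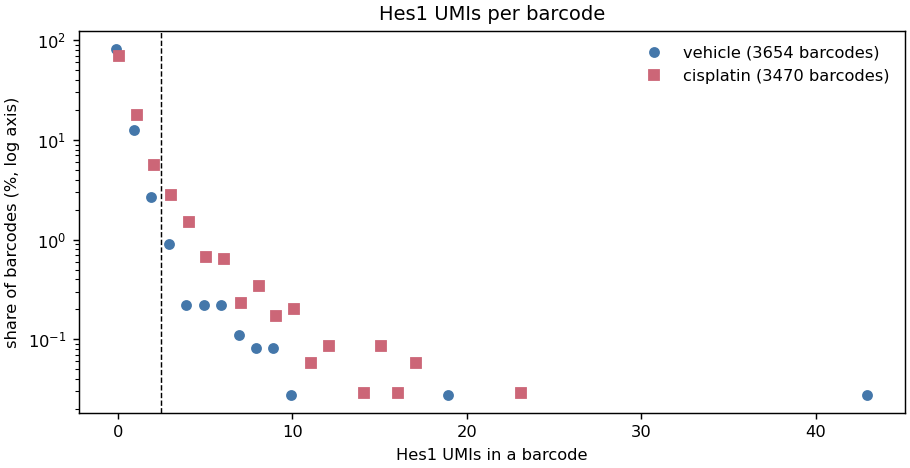
Share of barcodes (percent, log axis) by the number of Hes1 UMIs they held, for vehicle (blue circles) and cisplatin (red squares); the dashed line marks the threshold of 3 UMIs. Shares fall smoothly through the threshold in both libraries, and the single vehicle barcode at 43 UMIs is the club-marked one.

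Hes1 was unevenly spread for its level. Over barcodes thinned to 4000 UMIs its variance was 2.11 times its mean in vehicle and 2.23 times its mean in cisplatin, while genes of like mean had medians of 1.03 and 1.06. Only 6 of 1637 such genes in vehicle and 13 of 804 in cisplatin were more uneven. Marked barcodes were kept here, and 1 unmarked vehicle barcode held 19 Hes1 UMIs among only 4537. How much of the vehicle value rests on single barcodes was not tested. As a reference for stray RNA, marked barcodes of other cell types held any Hes1 UMI in 10 of 37 cases in vehicle (median depth 8588 UMIs) and in 8 of 12 in cisplatin (9584.5 UMIs). Among all filtered barcodes the share with any Hes1 UMI was 17.3% and 30.3%. Some of those other cell types can express Hes1, so they give no clean background.

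The Notch receptors were nearly undetected in Hes1-high cells. Notch1 gave 1 UMI in vehicle and 0 in cisplatin, Notch2 gave 3 and 5, and Notch3 gave 1 and 1. Notch4, a receptor best known from endothelium, was the only receptor measured. It stood at 8.71 CPM (3.76 to 17.2) against 5.04 in Hes1-0 in vehicle and at 6.37 CPM (3.48 to 10.7) against 4.93 in cisplatin, and the vehicle ratio passed the 1.5-fold limit (log2 ratio 0.69) with a counting interval that includes 1. Notch2 in vehicle was 3.27 CPM against 0.550 in Hes1-0. At this depth a low receptor level cannot be told from none in a single barcode.

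Among the ligands, Dll3, the inhibitory ligand that neuroendocrine small cell lung cancer expresses, was the one called. In vehicle it was 39.2 CPM (27.5 to 54.3) in Hes1-high against 65.2 in Hes1-0, a log2 ratio of -0.72 that passed the 1.5-fold limit. In cisplatin it was 49.6 CPM (40.7 to 59.8) against 63.0, a log2 ratio of -0.34 that did not. Jag1, an activating ligand, stood at 9.80 against 13.5 CPM in vehicle and at 21.8 against 33.0 CPM in cisplatin. Dll1 and Dll4, the other activating ligands measured in both, were 29.4 and 21.8 CPM in vehicle Hes1-high cells against 20.7 and 26.0 in Hes1-0, and 19.1 and 9.56 CPM against 20.3 and 9.95 in cisplatin. Jag2 had 6 and 8 UMIs. The ligand list had 1 of 6 measured members lower in vehicle, where 12.5% of all 12128 measured genes were lower, and 0 of 5 in cisplatin, where 4.31% of 10966 were. The fringe enzymes Mfng and Rfng, which add sugars to Notch receptors, were below Hes1-0 in both libraries. Mfng was 42.5 against 66.3 CPM in vehicle and 40.5 against 51.0 CPM in cisplatin, and Rfng was 14.2 against 22.3 CPM and 13.7 against 21.3 CPM.

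Hey1 and Nrarp were higher in Hes1-high cells of vehicle, and inside the 1.5-fold limit in cisplatin; the difference between libraries was not tested. Hey1, a repressor of the same family, was 29.4 CPM (19.4 to 42.8) in vehicle Hes1-high cells against 11.9 in Hes1-0, 2.47-fold (1.60 to 3.68). In cisplatin it was 10.5 CPM (6.64 to 15.7) against 9.12, 1.15-fold (0.699 to 1.81). Thinned to 4000 UMIs, 17.6% of vehicle members had a Hey1 UMI against 4.20% of Hes1-0 cells, while in cisplatin the shares were 4.41% and 3.34%. Nrarp, a feedback inhibitor of the Notch complex, was 32.7 against 15.7 CPM in vehicle and 18.7 against 15.5 CPM in cisplatin. Without the 4 marked barcodes Hey1 stayed above Hes1-0 in vehicle at 31.9 CPM (log2 ratio 1.35), whereas Nrarp came to 21.3 CPM (log2 ratio 0.42), below the 1.5-fold limit. Hes5 and Heyl, other targets, had 3 and 0 UMIs in vehicle and 2 and 0 in cisplatin. Of 12 targets besides Hes1, 7 were measured in each library. In vehicle 4 were higher, namely Hey1, Nrarp and the cell cycle genes Cdkn1a and Ccnd1, where 13.2% of all measured genes were, and 2 were without the marked barcodes. In cisplatin 0 were higher, where 4.81% of all were. Hes6, which opposes Hes1 and marks neuroendocrine cells, was 408 against 494 CPM in vehicle and 400 (374 to 427) against 385 CPM in cisplatin, inside the 1.5-fold limit in both.

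Part of the neuroendocrine genes were lower in Hes1-high cells of vehicle, and few passed the limit in cisplatin. Of 43 genes in the list, 40 were measured in each library. In vehicle 14 were lower and 0 higher, with a median log2 ratio of -0.40 against -0.01 over all measured genes, and in cisplatin 2 were lower and 1 higher, with a median of -0.16 against 0.01. Over all measured genes 12.5% were lower in vehicle and 4.31% in cisplatin, so the cisplatin count is near the share of all genes. Without the 4 marked barcodes the vehicle counts were 9 lower and 1 higher and the median was -0.32, and with Hes1-0 cells weighted to the depth of the Hes1-high cells it was -0.37. Taken relative to all measured genes, the vehicle median was -0.39. It shrank to -0.19 without barcodes of at least 3 UMIs of immune, endothelial, fibroblast and erythroid genes. With 2 or more Hes1 UMIs it was -0.21, and with 5 or more it was -0.51. The summed level of the list per barcode had a median of 7967 CPM in vehicle Hes1-high cells (10th to 90th percentile 3512 to 12479) against 10912 CPM (7537 to 14804) in Hes1-0. In cisplatin it was 10480 CPM (7174 to 15078) against 12486 CPM (7850 to 19602). The ranges overlap widely, and the lowest member was at 0 CPM in the vehicle library and at 2684 CPM in the cisplatin library. That vehicle member was not 1 of the 4 marked barcodes, so leaving those out does not remove every member low for this list.

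The members called lower in both libraries were Scg5 and Pcsk1n. Scg5, a chaperone of the prohormone convertase Pcsk2, was 138 CPM (115 to 165) in vehicle Hes1-high cells against 298 in Hes1-0, and 299.9 CPM (277 to 324) in cisplatin against 456, log2 ratios of -1.10 and -0.60. Pcsk1n, an inhibitor of prohormone convertase 1, was 198 CPM (170 to 229) against 317 in vehicle and 339 CPM (315 to 364) against 522 in cisplatin, log2 ratios of -0.67 and -0.62. With Hes1-0 weighted to member depth the cisplatin ratios of both genes fell inside the 1.5-fold limit, at -0.54 for Scg5 and -0.49 for Pcsk1n. Without marked barcodes the vehicle ratio of Pcsk1n was -0.58, also just inside it. The core markers moved little. Insm1, a neuroendocrine transcription factor, was 417 against 515 CPM in vehicle and 928 (889 to 970) against 960 CPM in cisplatin. Chga, the granule protein used in diagnosis, was 266 against 363 CPM and 316 against 328 CPM. Syp, a synaptic vesicle protein, was 65.4 against 80.4 CPM and 75.1 against 104 CPM. All 3 stayed inside the 1.5-fold limit in both libraries. Calca, the gene at whose locus Cre is expressed, had 0 UMIs in vehicle members, which allows up to 3.27 CPM, and 2 UMIs in cisplatin members. Its level in Hes1-0 cells is not given here, so these counts make no comparison between the classes.

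Levels of Scg5 and Pcsk1n were also taken by class of Hes1 UMIs, among barcodes of at least 4000 UMIs. Both genes were picked because they were called lower in Hes1-high cells, which fill the classes of 3 to 4 and of 5 or more. Their lower level in those classes was thus given by the choice and is a description only. Scg5 in vehicle stood at 298, 277, 238, 168 and 106 CPM in barcodes with 0, 1, 2, 3 to 4, and 5 or more Hes1 UMIs, and in cisplatin at 456, 385, 345, 326 and 259 CPM. Over the same classes Pcsk1n stood at 317, 294, 261.3, 260.9 and 129.5 CPM in vehicle and at 522, 451, 409.7, 348 and 324 CPM in cisplatin. In vehicle it was thus level between 2 and 3 to 4 Hes1 UMIs. Chga stood at 363, 333, 352, 289.6 and 240.2 CPM in vehicle and at 328, 301, 308, 302 and 333 CPM in cisplatin, without a fall at each step in either library. The classes from 0 upwards held 2545, 431, 95, 41 and 27 vehicle barcodes and 1735, 535, 173, 137 and 90 cisplatin barcodes, and their median depth went from 8505 to 14385 UMIs in vehicle and from 6091 to 8794.5 UMIs in cisplatin. The part of depth in this order was not tested. Without the marked barcodes Scg5 in the highest vehicle class was 119.5 CPM.

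**Figure D2:**
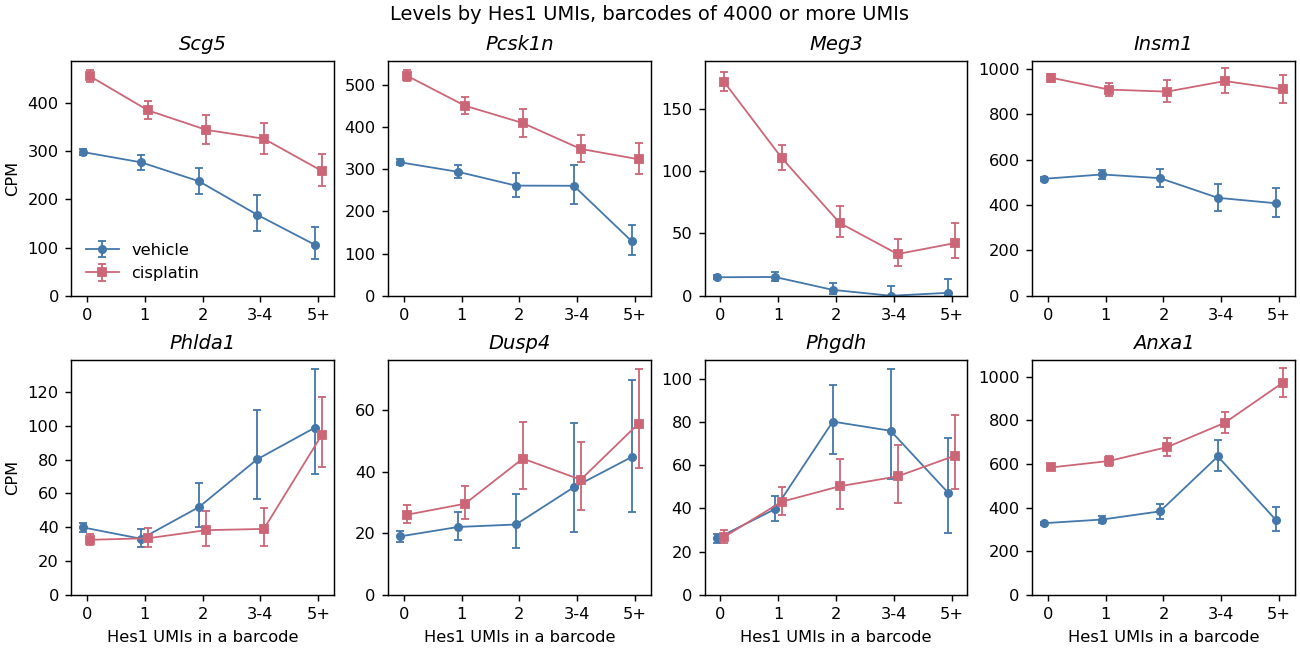
Levels of 8 genes (CPM, error bars exact 95% Poisson intervals) by the number of Hes1 UMIs in a barcode, among barcodes of at least 4000 UMIs, for vehicle (blue circles) and cisplatin (red squares). Scg5, Pcsk1n and Meg3, picked for their low level in Hes1-high cells, are lower in the classes those cells fill (3 to 4, and 5 or more). Insm1 is nearly level in cisplatin, and Phlda1 and Dusp4 are highest in the class with 5 or more Hes1 UMIs.

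Non-neuroendocrine genes were higher in part. In vehicle 23 of 33 were measured, 14 of them higher and 1 lower, with a median log2 ratio of 0.98, where 13.2% of all genes were higher. Without the 4 marked barcodes 17 were measured, 7 higher and 0 lower, with a median of 0.55, where 14.2% of all genes were higher and 12.7% lower. Among unmarked vehicle barcodes of at least 4000 UMIs the median was 0.52 with 3 to 4 Hes1 UMIs and 0.13 with 5 or more. The same classes of cisplatin had medians of 0.33 and 0.20. In cisplatin 16 were measured, 3 higher and 0 lower, with a median of 0.26, where 4.81% of all were higher. Cav2, a caveolin, was higher in both, at 31.6 CPM (21.2 to 45.4) against 15.5 in vehicle and 23.2 CPM (17.3 to 30.5) against 12.5 in cisplatin. Cyr61, a matrix protein and YAP target, was 17.4 CPM (9.96 to 28.3) against 6.35 and 20.9 CPM (15.3 to 27.9) against 11.9, called higher in both. Its vehicle UMIs came from 6 of 70 members. Anxa1, a phospholipid-binding protein of non-neuroendocrine lines, was the most abundant of those near the limit. It was 497 CPM (452 to 544) against 328 in vehicle and 874 CPM (836 to 914) against 584 in cisplatin, log2 ratios of 0.60 and 0.58, the first just past the limit and the second just short of it. In the 22 vehicle members with under 2 mitotic UMIs the ratios turned, to -0.05 for Anxa1 and -0.51 for Cyr61.

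The genes usually taken to define a non-neuroendocrine state were scarce. Vim, the mesenchymal filament, had 5 UMIs in vehicle members and 1 in cisplatin members. In Hes1-0 cells it stood at 3.81 and 2.01 CPM. Yap1 had 2 and 2. Rest, which represses neuronal genes and is a known Notch target in this disease, had 7 UMIs in 5 vehicle members (7.62 CPM, 3.07 to 15.7) against 0.466 CPM in Hes1-0, but 1 UMI in cisplatin members. Cd44, an adhesion receptor, was 20.7 against 7.41 CPM in vehicle, yet 10.6 CPM without the marked barcodes, and 9.10 against 7.36 CPM in cisplatin. Tgfb1, a ligand of the mesenchymal transition list, was higher in both libraries at 103.5 against 56.2 CPM and 64.6 against 35.0 CPM. The mesenchymal list as a whole had 3 of 8 measured members higher in vehicle and 2 of 7 in cisplatin, and 0 lower in either, where 13.2% and 4.81% of all genes were higher.

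**Figure D3:**
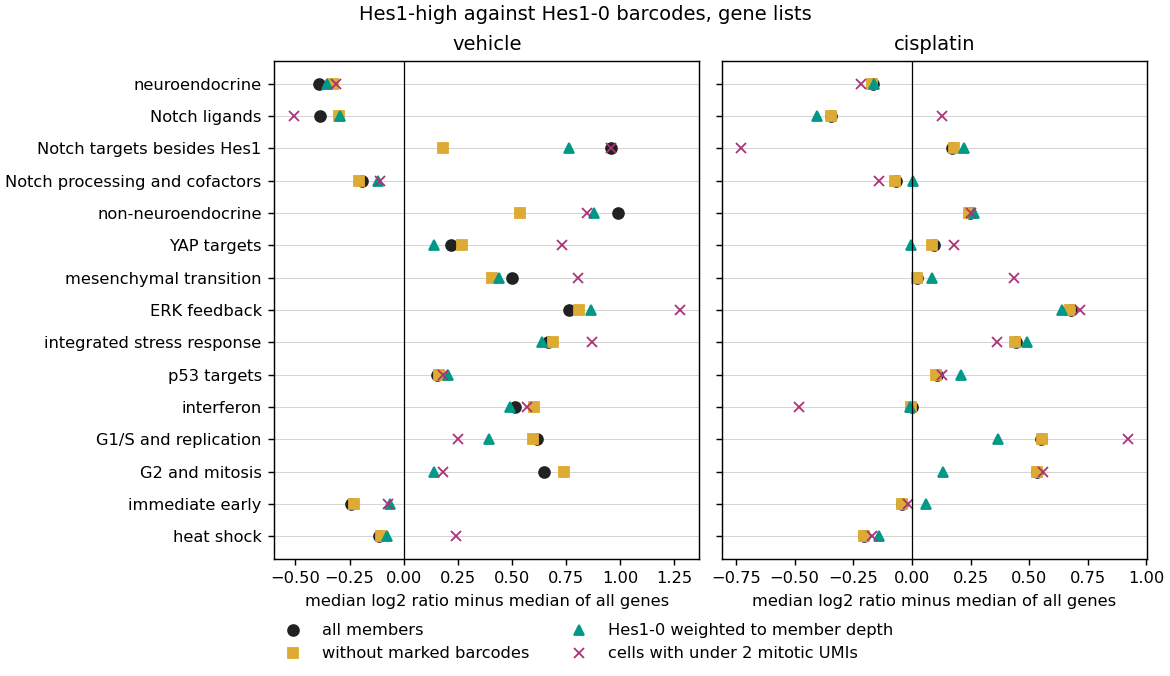
Median log2 ratio of Hes1-high against Hes1-0 cells for 15 gene lists, minus the median of all measured genes, in vehicle (left) and cisplatin (right). Black circles use all members, yellow squares leave out the marked barcodes, green triangles weight Hes1-0 cells to member depth and purple crosses use cells with under 2 mitotic UMIs; ERK feedback and the integrated stress response stay to the right of 0 in every case and the neuroendocrine list to the left.

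Genes of the ERK feedback list were higher in both libraries. The list holds phosphatases and Sprouty proteins, which are induced by growth factor signals and damp them. Phlda1, also in the list, is neither. In vehicle 6 of 9 measured members were higher and 0 lower (median log2 ratio 0.76), and in cisplatin 6 of 10 were higher and 0 lower (median 0.69). Over all measured genes 13.2% and 4.81% were higher. Phlda1 was 88.2 CPM (70.1 to 109.7) against 39.8 in vehicle and 61.9 CPM (51.9 to 73.2) against 32.5 in cisplatin. Dusp4, a nuclear phosphatase of ERK, was 39.2 CPM (27.5 to 54.3) against 19.0 and 44.6 CPM (36.2 to 54.4) against 26.0. Spry1, a Sprouty inhibitor, was 50.1 CPM (36.7 to 66.8) against 29.6 and 68.3 CPM (57.8 to 80.1) against 38.0. All 3 passed the 1.5-fold limit in both libraries. Spred1, a related inhibitor, was 16.4 against 5.94 CPM in cisplatin, and its vehicle value of 10.9 against 7.11 CPM missed the limit. The list medians were 0.85 and 0.63 with Hes1-0 weighted to member depth.

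Genes of the integrated stress response, the ATF4 programme that answers amino acid shortage and misfolded protein, were also higher in both. In vehicle 13 of 19 measured members were higher and 0 lower (median 0.66), and in cisplatin 7 of 18 were higher and 0 lower (median 0.45), against 13.2% and 4.81% of all measured genes higher. Phgdh, the first enzyme of serine synthesis, was 62.1 CPM (47.0 to 80.4) against 26.2 in vehicle and 58.3 CPM (48.6 to 69.3) against 26.8 in cisplatin, folds of 2.37 (1.78 to 3.12) and 2.18 (1.76 to 2.68). Shmt2, the mitochondrial serine hydroxymethyltransferase, was 61.0 against 32.8 CPM and 57.8 against 35.7 CPM. Ddit3, the stress transcription factor CHOP, was 169 CPM (143 to 198) against 71.7 and 142 CPM (127 to 159) against 86.4. Gdf15, a secreted stress cytokine, was 32.7 CPM (22.0 to 46.6) against 8.59 and 33.2 CPM (26.0 to 41.8) against 10.3, from 13 of 70 and 32 of 241 members, and in cisplatin 1 barcode gave 30 of its 73 UMIs. In vehicle members with under 2 mitotic UMIs its log2 ratio was -2.87. Summed over the list, the per-barcode medians were 2305 CPM against 1458 in vehicle and 1962 against 1599 CPM in cisplatin.

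A larger share of Hes1-high than of Hes1-0 barcodes was cycling, counted as at least 2 UMIs over 10 mitotic genes. In vehicle it was 68.6% (48 of 70, 56.4 to 79.1%) against 45.5% (43.6 to 47.5%), and in cisplatin 71.4% (172 of 241, 65.2 to 77.0%) against 45.5% (43.2 to 47.9%). Depth raises such a share, so it was repeated with each barcode thinned to 4000 UMIs, which left out 2 vehicle and 14 cisplatin members. The shares were then 34 of 68 (37.6 to 62.4%) against 29.4% in vehicle and 59.5% (52.8 to 65.9%) against 37.9% in cisplatin. Barcodes with 1 or 2 Hes1 UMIs lay between, at 41.1% and 48.4% thinned.

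**Figure D4:**
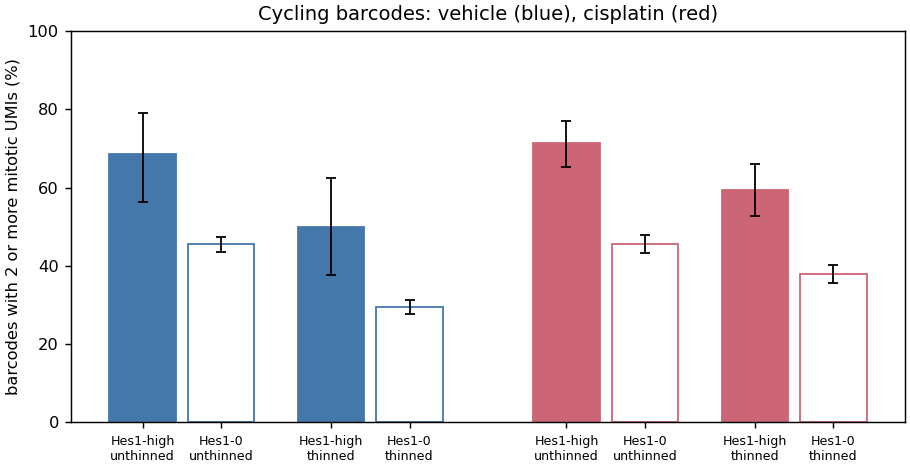
Share of barcodes with at least 2 mitotic UMIs (percent, with exact 95% Clopper-Pearson intervals) in Hes1-high (filled) and Hes1-0 (open) cells, unthinned and thinned to 4000 UMIs. In both libraries and both ways of counting the Hes1-high share is the higher one and the intervals do not overlap.

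Replication genes showed the same order. Of 26 G1/S genes, 14 were higher in vehicle, where 13.2% of all genes were, and 11 in cisplatin, where 4.81% were, and 0 were lower in either. Cdc6, which loads the replicative helicase, was 54.5 CPM (40.4 to 71.8) against 17.9 in vehicle and 30.0 CPM (23.2 to 38.2) against 14.9 in cisplatin. Its partner Cdt1 was 101 against 51.1 CPM and 69.6 against 39.6 CPM. Ccne1, cyclin E1, was 128.5 against 55.4 CPM and 44.1 against 26.0 CPM, and Rrm2, a subunit of ribonucleotide reductase, was 251 against 98.7 CPM and 282 against 152 CPM. Of 30 G2 and mitosis genes, 20 were higher in vehicle and 9 in cisplatin. Bub1, a spindle checkpoint kinase, was 76.2 against 22.8 CPM and 47.8 against 23.8 CPM, and Kif23, a kinesin of cell division, was 125 against 48.3 CPM and 78.3 against 45.9 CPM. With Hes1-0 weighted to member depth the counts fell to 7 and 4 for G1/S and to 6 and 0 for G2 and mitosis, and 1 vehicle mitosis gene was lower. Under that weighting 11.7% of all genes were higher and 11.8% lower in vehicle, and 3.16% and 4.74% in cisplatin. In vehicle members with under 2 mitotic UMIs, a class chosen for low mitotic genes, the log2 ratios of Rrm2 and Bub1 were -0.28 and -0.92. Cdkn1a, the p21 inhibitor of the cycle, was also above Hes1-0, at 767 CPM (711 to 826) against 397 in vehicle and 695 CPM (661 to 731) against 483 in cisplatin.

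Over all genes measured in both libraries (10923), 1281 were higher in vehicle and 522 in cisplatin, and 281 were higher in both, 21.9% of the first list and 53.8% of the second. Lower in both were 156, which is 12.7% of 1231 and 33.3% of 468. The lowest gene by the smaller of its 2 ratios was Meg3, an imprinted long non-coding RNA. It had 1 UMI in vehicle members (1.09 CPM, 0.0276 to 6.07) against 14.8 CPM in Hes1-0, and was 39.1 CPM (31.3 to 48.3) in cisplatin members against 171 CPM. Snhg11, another non-coding RNA, was 5.45 against 34.8 CPM and 16.4 against 33.1 CPM. Mapk10, the neuronal JNK kinase, was 22.9 against 49.9 CPM and 21.4 against 40.1 CPM. Ak1, an adenylate kinase, was 27.2 against 71.5 CPM and 39.1 against 71.8 CPM. Dnajc12, a co-chaperone of aromatic amino acid hydroxylases, was 124 against 229 CPM and 156 against 282 CPM. Smarca1, a chromatin remodeller, Gas6, a ligand of the TAM receptors, and the imprinted Nap1l5 were lower in both as well, with log2 ratios between -1.09 and -0.85.

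**Figure D5:**
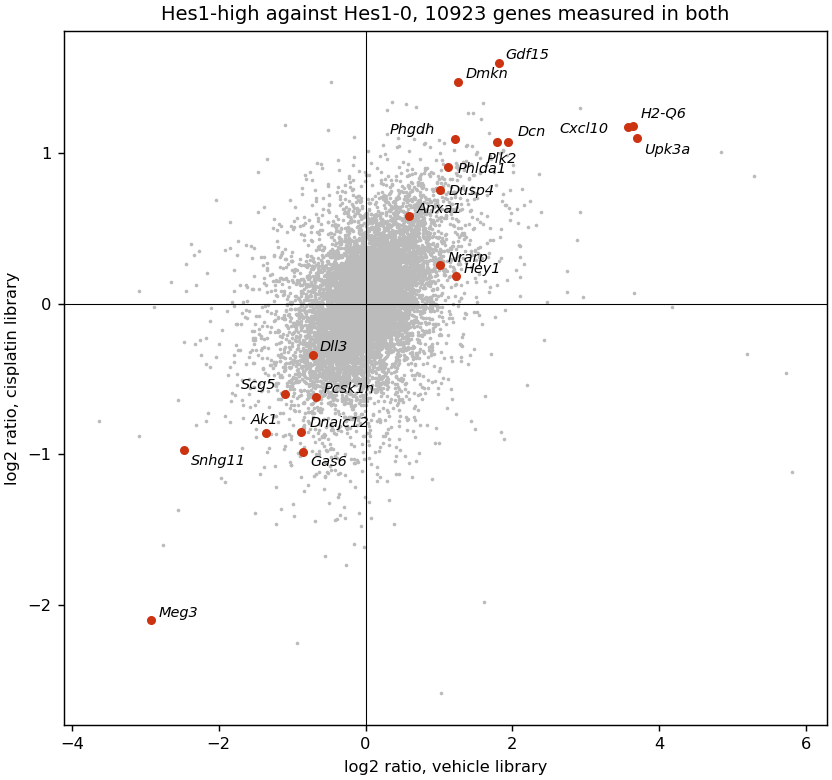
Log2 ratio of Hes1-high against Hes1-0 cells in vehicle (horizontal) and cisplatin (vertical) for 10923 genes measured in both (grey), with genes named in the text in red. Meg3 is the lowest of the labelled genes on both axes, Gdf15, Dmkn and Phgdh are high in both, and Upk3a loses its vehicle position without the marked barcodes.

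Of the highest genes by the same rule, Dmkn, an epithelial secreted protein, was 142 CPM (118 to 168) against 58.6 in vehicle and 76.5 CPM (65.3 to 88.9) against 26.9 in cisplatin, but its vehicle log2 ratio was -0.33 in members with 5 or more Hes1 UMIs. Plk2, a stress-induced kinase, was 80.6 CPM (63.3 to 101) against 22.6 and 93.8 CPM (81.4 to 107) against 43.9. The histone methyltransferase Suv39h2 and the cohesin protector Sgol1 were 33.8 and 81.7 CPM in vehicle members against 9.18 and 30.6, and 25.5 and 81.5 CPM in cisplatin members against 11.6 and 38.7. Dcn, a matrix proteoglycan, was 146 against 37.2 CPM and 31.4 against 14.4 CPM, from 18 of 70 and 20 of 241 members. Its vehicle log2 ratio was -0.55 without barcodes of at least 3 UMIs of immune, endothelial, fibroblast and erythroid genes. That count includes Dcn and leaves out club and alveolar genes. Upk3a, a urothelial membrane protein, was 125 CPM in vehicle members against 8.76 in Hes1-0, but 7.09 CPM (log2 ratio -0.23) without marked barcodes, and 41.9 against 19.0 CPM in cisplatin.

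Hes1-high cells of the cisplatin library were last set against those of the vehicle library. Of 7423 measured genes 8.12% were higher and 17.6% lower in cisplatin, and in Hes1-0 cells 4.19% and 17.1% of 12526 were. The excess of lower genes among Hes1-high cells depends on the scaling, with 603 higher and 1310 lower here, 882 and 998 under TMM scaling, and 855 and 1025 under median-of-ratios scaling. The 5 highest genes were Rprm, Ceacam10, Meg3, Klk1 and Il1rn. Rprm, a p53-induced arrest gene, had 0 UMIs in vehicle members and 54.2 CPM (44.9 to 64.8) in cisplatin members, at least 16.6-fold higher against a limit of 3 counts over the vehicle members. Ceacam10 had 0 UMIs against 46.9 CPM, at least 14.3-fold higher, and is also a marker of the delta-like set. Klk1, a kallikrein protease, was 82.8 CPM (65.2 to 104) against 825 CPM (788 to 864), and Il1rn, the interleukin-1 receptor antagonist, was 24.0 CPM (15.0 to 36.3) against 169 CPM (152 to 187). All 5 were also higher in the Hes1-0 cells of the cisplatin library, where Rprm went from 1.40 to 67.2 CPM, Ceacam10 from 2.71 to 48.5 CPM, Meg3 from 14.8 to 171 CPM, Klk1 from 119 to 371 CPM and Il1rn from 47.1 to 188 CPM. Scg5 was likewise higher in cisplatin in both classes. The 5 lowest genes, Itln1, Hp, Scgb3a1, Scgb3a2 and Sftpb, were airway and alveolar secretory genes. Their vehicle levels of 149, 239.6, 237, 1568 and 313 CPM fell to 1.18, 4.73, 3.54, 8.27 and 1.18 CPM without the 4 marked barcodes, against 0, 3.19, 0, 9.10 and 0 CPM in cisplatin members.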

How the data were processed

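The authors deposited raw UMI counts per gene and barcode for each of the 2 libraries, with no normalization, per the file headers. The submitters' processing notes list Cell Ranger 2.0.2 as a tool and mm10 as a build. The matrices held 28692 genes, and 23 barcode sequences occurred in both libraries. No doublet caller was run and no barcode was removed as a doublet.

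The counts were summed per gene over the barcodes of a class, scaled to CPM and compared as log2 ratios with 1 CPM added. Poisson intervals were used for sums, Clopper-Pearson intervals for shares and conditional binomial intervals for folds, all exact at 95%. A count of 0 allows 3 counts of the total. Depth weighting gave each of 5 bins of member depth the members' share of UMIs and used Hes1-0 barcodes of any total in those bins. Hes1 was left out of every list, and Tead2, a symbol with 2 identifiers, was left out of the YAP targets.

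Genes were named by these criteria: the 10 highest and the 10 lowest by the smaller log2 ratio over both libraries, with a mean of at least 20 CPM. It also took the 5 highest and 5 lowest of cisplatin against vehicle, up to 4 members of each list, and a set of Notch, neuroendocrine and early-response genes. Mitochondrial, ribosomal, haemoglobin, predicted and sex-linked marker genes were left out, and some genes the rule takes are not reported here. Cartpt and Foxp2 were named after their values were seen. The members and the lists were chosen with earlier results of these data known. Removal of the 4 marked barcodes, and of Hes1-high barcodes under 4000 UMIs, was chosen after seeing the data.

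Of the marker sets, neutrophil, erythroid, T cell, alveolar type 1, ciliated, basal and tuft genes summed to at most 34.9 CPM over Hes1-high cells of either library. The delta-like set, of which the rule used 5 genes, summed to 17.4 CPM in vehicle and 163 CPM in cisplatin members. Python 3.11.15 (numpy 2.4.6, scipy 1.17.1, pandas 2.3.3, matplotlib 3.10.9) was used, and R 4.3.3 with edgeR 4.0.16 and DESeq2 1.42.0 for other scalings only. The steps were tested on simulated data.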

Additional observations from a re-analysis of the deposited data

Results flagged for a closer look

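Some of the 10923 genes measured in both libraries had opposite ratios, each past the 1.5-fold limit with a counting interval clear of 1. Of these, 7 were higher in vehicle and lower in cisplatin, and 2 were the reverse. Described here are 3 of the first kind, and the others are not reported here. Cartpt, a neuropeptide precursor, had a log2 ratio of Hes1-high against Hes1-0 of 0.67 in vehicle (65.4 against 40.8 CPM) and -0.75 in cisplatin (62.4 against 105.9 CPM). Foxp2, a forkhead transcription factor, had 0.66 (40.3 against 25.2 CPM) and -0.69 (10.9 against 18.2 CPM). Scgb3a2, a club cell secretoglobin, had 5.81 and -1.12, and its vehicle level came from the marked barcodes. With 1 library per group the difference between libraries was not tested for any of them.

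Among the cisplatin barcodes that the filter on delta-like genes removed, 6.02% (45 of 748, 4.42 to 7.97%) held at least 3 Hes1 UMIs, so Hes1-high barcodes also occurred outside the cells described here. In vehicle 1 of 18 such barcodes did.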

How the results depend on the processing

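No paired analysis was possible because each group is 1 library and the labels give no replicate numbers. Of 216 recomputed counts, shares and list medians, 180 stayed within 1.5 times or within their spread and 36 moved. Of the single-gene and single-list values, 3121 stayed, 414 moved and 12 turned direction. TMM, median-of-ratios and mean-per-barcode scaling, the 5% mitochondrial limit and keeping delta-like barcodes gave none of the 36, although TMM and median-of-ratios scaling moved the split of cisplatin against vehicle from 603 higher and 1310 lower to 882 and 998, and to 855 and 1025. Against 1601 genes higher and 1512 lower in vehicle, there were 909 and 638 with 2 or more Hes1 UMIs, 987 and 972 with at least 200 UMIs a gene, and 528 and 489 at a 2-fold limit. The lower count there was 2754 with 5 or more Hes1 UMIs, 2620 in cells with under 2 mitotic UMIs and 834 with 5 CPM added. Against 528 higher and 473 lower in cisplatin, there were 888 and 1199 with 5 or more Hes1 UMIs, 245 and 181 with 5 CPM added, 875 and 857 at 10 UMIs a gene, 229 and 159 at 200 UMIs, and 52 and 91 at a 2-fold limit. The lower count there was 237 with 2 or more Hes1 UMIs, 793 thinned and 1141 under 2 mitotic UMIs, and the higher count was 248 with both classes of 8000 or more UMIs. Against 603 higher and 1310 lower for cisplatin against vehicle, there were 1127 and 2763 at 10 UMIs a gene, 290 and 281 at 200 UMIs, and 129 and 396 at a 2-fold limit. The lower count there was 656 with 5 or more Hes1 UMIs, 569 thinned and 244 under 2 mitotic UMIs. Thinning to 4000 UMIs gave shares of Hes1-high cells of 0.605% in vehicle and 3.78% in cisplatin. The median of the Notch targets relative to all genes was 0.18 in vehicle without marked barcodes and -0.73 in cisplatin under 2 mitotic UMIs.

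Direction turned under 2 mitotic UMIs in vehicle for the 10 mitotic genes (median -0.13), Anxa1 (-0.050), Cyr61 (-0.51), Gdf15 (-2.87), Rrm2 (-0.28), Bub1 (-0.92) and Sgol1 (-0.054), and in cisplatin for Cxcl10 (-1.24). It also turned for Dmkn in vehicle with 5 or more Hes1 UMIs (-0.33). For Dcn in vehicle it turned without barcodes of at least 3 UMIs of immune, endothelial, fibroblast and erythroid genes (-0.55). Without marked barcodes it turned for Upk3a in vehicle (-0.23) and for Scgb3a2 in cisplatin against vehicle (0.12). Smaller classes leave fewer genes and members (22 vehicle members had under 2 mitotic UMIs), and otherwise the cause was not tested. The vehicle members' summed depth limits low genes.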

Other observations

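Some interferon-response genes, and the antigen presentation gene H2-Q6, were higher in part of the vehicle Hes1-high cells. In vehicle 7 of 16 measured interferon genes were higher and 0 lower (median log2 ratio 0.50), and in cisplatin 1 was higher and 0 lower (median 0.01), near the 4.81% of all measured genes that were higher there. In vehicle 13.2% of all were higher. The gene called in both was Cxcl10, a chemokine that draws T cells, at 50.1 CPM (36.7 to 66.8) against 3.30 in vehicle and 29.1 CPM (22.4 to 37.2) against 12.4 in cisplatin. Its UMIs came from 12 of 70 and 18 of 241 members, and its cisplatin log2 ratio was -1.24 in cells with under 2 mitotic UMIs. H2-Q6, a non-classical class I antigen gene that belongs to a family of near-identical copies, so that its counts are uncertain, was 208 CPM (179.6 to 239.7) against 15.7 and 30.0 CPM (23.2 to 38.2) against 12.7, from 18 and 30 members. The per-barcode median of the interferon list was no higher in Hes1-high than in Hes1-0 cells of vehicle, 579.9 against 582 CPM, while the 90th percentile was 2446 against 1433 CPM. Among vehicle barcodes of at least 4000 UMIs the list summed to 1329 CPM with 3 to 4 Hes1 UMIs. With 5 or more it was 692 CPM, below the 779 CPM of Hes1-0 cells.

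Hypoxia-response genes moved in part. Vegfa, the angiogenic growth factor, was 24.0 against 10.9 CPM in vehicle and 14.6 against 6.44 CPM in cisplatin, and Hk2, a hexokinase, was 18.5 against 3.85 CPM and 6.83 against 3.26 CPM. Ndrg1 was 31.6 against 16.6 CPM and 16.4 against 9.87 CPM. The full list had 4 of 14 measured members higher and 2 lower in vehicle and 5 of 14 higher and 1 lower in cisplatin, where 13.2% and 12.5% of all genes were higher and lower in vehicle and 4.81% and 4.31% in cisplatin. The lower members, named after their values were seen, were Ankrd37 (20.7 against 46.9 CPM) and Pdk1 (5.45 against 15.9 CPM) in vehicle and Aldoa (334 against 524 CPM) in cisplatin, and Pdk1 was higher in cisplatin (15.0 against 9.28 CPM). Bhlhe40, a repressor related to Hes1, was 35.9 against 21.1 CPM and 26.4 against 14.2 CPM. The Id genes, which bind the same partner proteins as proneural factors, stayed inside the 1.5-fold limit: Id1 was 957 against 926 CPM and 866 against 868 CPM, Id2 785 against 910 CPM and 1158 against 1014 CPM, and Id3 1021 against 1026 CPM and 1106 against 1014 CPM.

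Of the genes that tissue dissociation can induce, a few were called, in both directions. Of the immediate early list 6 of 23 measured members were higher and 3 lower in vehicle (1 lower with Hes1-0 weighted to member depth), and 1 of 22 was higher and 2 lower in cisplatin. Of 12 heat shock genes 2 were higher and 0 lower in vehicle, and 0 higher and 1 lower in cisplatin. Over all genes 13.2% were higher and 12.5% lower in vehicle, and 4.81% and 4.31% in cisplatin. The immediate early genes lower in vehicle and those higher in cisplatin were thus near the share of all genes. Higher in vehicle were Ier3 (42.5 against 17.1 CPM) and Ier5 (136 against 88.0 CPM). Fos was 1585 against 2522 CPM in vehicle and 2352 against 3068 CPM in cisplatin, and Fosb was 121 against 229 CPM and 52.3 against 84.0 CPM. The heat shock gene Hspa1a was 120 against 159 CPM and 226 against 414 CPM. Jun and Egr1 stayed inside the limit in both libraries. Cdkn1c, the p57 inhibitor of the cycle, was 165 against 76.2 CPM in cisplatin and 79.5 against 58.2 CPM in vehicle.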
